A study of Mus musculus with 8 samples.

Results

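Mitosis and cytokinesis genes were followed in mouse liver that received ATF3, a stress-induced transcription factor, by virus. The set holds 41 genes named for their function and chosen with earlier results of these data known. Of these, 40 had at least 10 normalized counts in at least 4 of 8 libraries and were tested. The whole table lists 24972 genes, of which 13301 passed the same filter. In the ATF3 group, C57BL/6J mice aged 10 weeks were injected into a vein with the adeno-associated virus AAV8-ALB-ATF3. In the Null group, mice of the same strain and age received the empty virus AAV8-ALB-Null. ALB was taken as the albumin promoter, which drives a transgene in hepatocytes, whereas the RNA came from whole liver. Livers were taken 8 weeks later, at 18 weeks of age, and 4 libraries of each group were analysed, while 8 mice a group are given for the study. Whether a library stands for 1 animal or a pool is not labelled, so p-values and SDs measure only the spread between these libraries. Where single livers are compared or counted below, libraries are meant.

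Mitosis separates the copied chromosomes, and cytokinesis then cuts the cell apart. Cyclin B with the kinase Cdk1 drives entry, the spindle checkpoint holds sister chromatids together until all are attached, and the anaphase-promoting complex then destroys cyclin B and the inhibitor of separase. Most adult hepatocytes do not divide, and many are polyploid because cytokinesis did not follow mitosis during growth. Transcripts of these genes therefore come from few cells in a resting liver, and in RNA from whole tissue more cycling cells and more RNA per cycling cell cannot be told apart.

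The set was higher in ATF3 livers as a whole. Of 40 tested members 32 rose and 0 fell (adjusted p under 0.05 in limma with Benjamini-Hochberg adjustment over all genes tested), or 36 and 0 at an unadjusted p under 0.05. Among all tested genes 11.4% were called higher and 9.82% lower. All 40 had a positive log2 change on log2(normalized count + 1), the scale used for every change here, with a median of 1.23, against 0.007 over all tested genes. In 29 members every ATF3 library lay above every Null library, which held for 13.7% of all tested genes, and the reverse held for 0 members and for 12.6% of all tested genes. Melk was tested because of the ATF3 libraries alone, being under 10 in every Null library, and without it 31 of 39 rose with a median of 1.24. Ttk, Bub1, Kif2c, Plk1 and Aurkb reached 10 in only 1, 2, 2, 3 and 3 Null libraries, so they too needed ATF3 libraries to pass the filter. Of these, Ttk, Kif2c and Aurkb are counted among the 32 that rose and the 29 without overlap, and counts without them were not computed. The number of members that rose lay between 24, without ATF3 4, and 34, without Null 4, when single libraries were left out, and 24 of the 32 calls held each time.

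**Figure D1:**
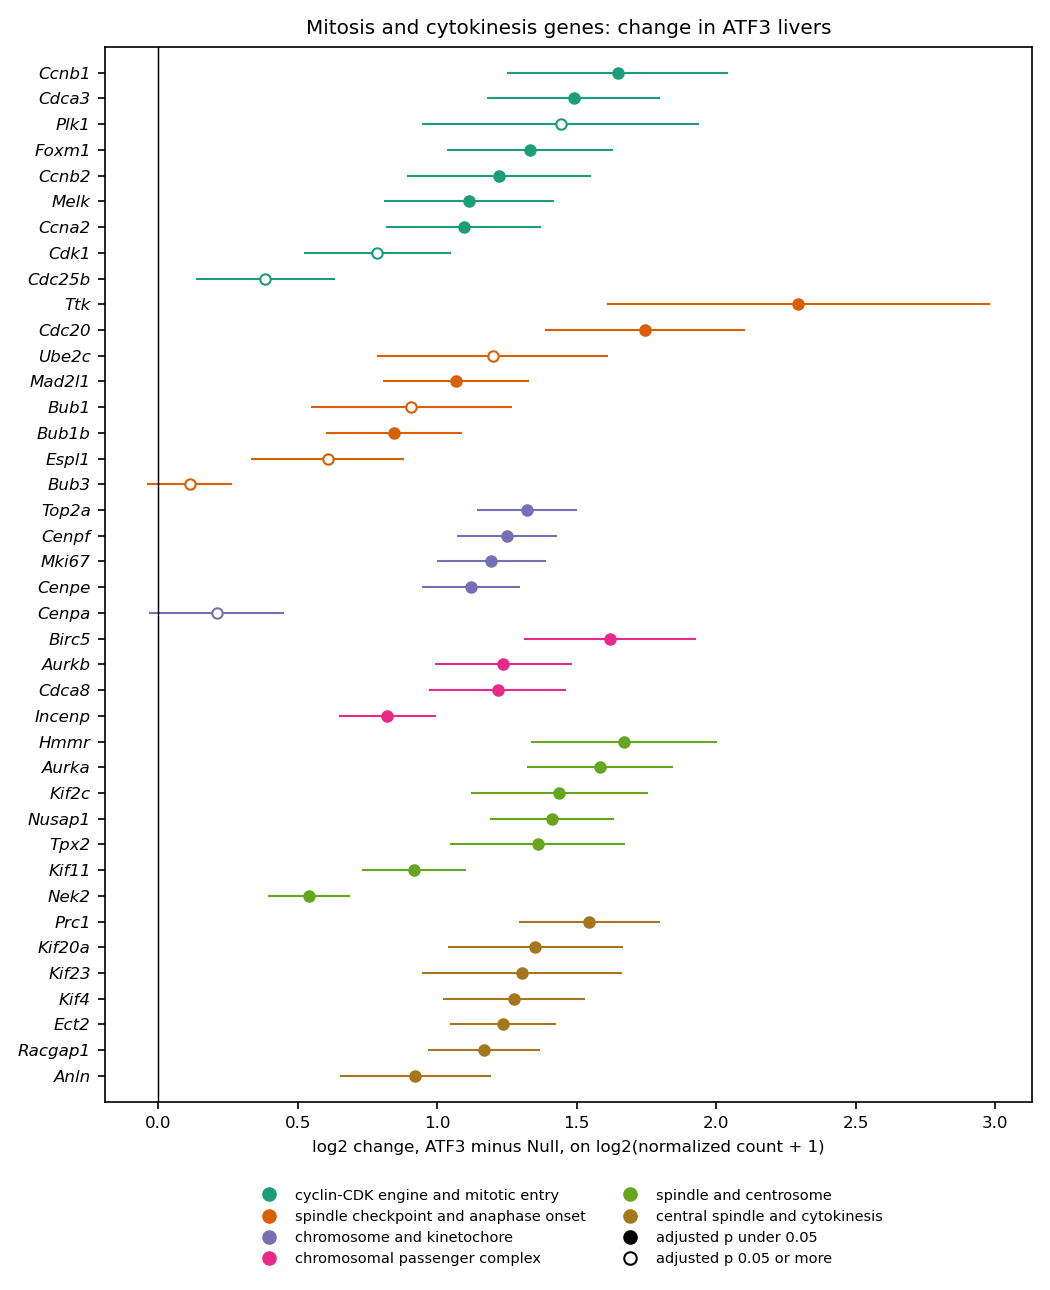
Log2 change (ATF3 minus Null) of the 40 tested members with its standard error (bars), coloured by role; filled points passed an adjusted p of 0.05 in limma. All 40 points lie to the right of 0, from 0.11 (Bub3) to 2.29 (Ttk), and the open points are Cdk1, Cdc25b, Plk1, Bub1, Bub3, Espl1, Ube2c and Cenpa.

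Library-wide values bear on how firmly single members are known. Normalized counts summed to 23.9 to 25.9 M in ATF3 and 26.2 to 28.4 M in Null libraries, and depth was roughly estimated at 22.5 to 48.5 M reads in ATF3 and 17.2 to 48.5 M reads in Null libraries. By this estimate 1 read is worth 0.493 (ATF3 1) to 1.57 (Null 4) normalized counts, so members near 10 normalized counts rest on few reads. Atf3 itself held 5611 to 7053 normalized counts in ATF3 and 20.3 to 24.5 in Null libraries. Of the members, Cdc25c, a phosphatase that activates Cdk1, did not pass the filter, with 10.02, 11.5, 2.10 and 2.22 normalized counts in ATF3 1 to 4 and 3.51, 3.32, 1.49 and 3.09 in Null 1 to 4. Melk, a mitotic kinase, lay just inside it with 20.8, 19.3, 10.4 and 19.7 in ATF3 and 8.35, 7.25, 6.03 and 7.78 in Null livers.

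Promoters of the set are shown because the members moved together and many are textbook targets of shared elements. The cell cycle homology region (CHR, searched as TTTGAA or TTTAAA) is bound by the MuvB complex with B-MYB, FOXM1 or the DREAM repressor, and the CCAAT box (searched as CCAAT) by NF-Y. Both strands were searched in RefSeq windows (GRCm38.p6) from 250 bases before to 50 bases after each annotated start, which were found for 34 of the 41 members. The windows below lie at chr11:99024140-99024439 (minus strand), chr1:189688037-189688336 (minus strand), chr3:27153829-27154128 (minus strand) and chr7:80294201-80294500 (plus strand). They belong to the members with the smallest p among the 15 whose counts are plotted that hold both motifs, and capitals mark the CHR and CCAAT letters on either strand.
Top2a: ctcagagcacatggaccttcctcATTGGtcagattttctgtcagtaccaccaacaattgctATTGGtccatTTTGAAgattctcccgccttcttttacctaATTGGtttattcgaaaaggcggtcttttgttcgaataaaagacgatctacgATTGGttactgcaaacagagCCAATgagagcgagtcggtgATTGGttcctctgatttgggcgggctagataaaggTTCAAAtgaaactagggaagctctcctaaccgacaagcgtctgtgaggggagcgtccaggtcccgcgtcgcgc
Cenpf: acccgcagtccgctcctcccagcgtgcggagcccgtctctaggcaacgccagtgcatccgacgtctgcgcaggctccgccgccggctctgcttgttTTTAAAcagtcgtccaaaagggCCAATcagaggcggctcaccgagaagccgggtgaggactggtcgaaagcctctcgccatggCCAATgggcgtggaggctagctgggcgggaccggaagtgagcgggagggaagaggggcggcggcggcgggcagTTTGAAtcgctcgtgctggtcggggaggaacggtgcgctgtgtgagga
Ect2: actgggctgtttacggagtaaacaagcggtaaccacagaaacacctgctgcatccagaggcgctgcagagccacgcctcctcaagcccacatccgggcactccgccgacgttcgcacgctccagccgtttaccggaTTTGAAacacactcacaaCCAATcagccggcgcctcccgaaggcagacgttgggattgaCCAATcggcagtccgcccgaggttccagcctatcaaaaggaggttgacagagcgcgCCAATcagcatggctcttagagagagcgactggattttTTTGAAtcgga
Prc1: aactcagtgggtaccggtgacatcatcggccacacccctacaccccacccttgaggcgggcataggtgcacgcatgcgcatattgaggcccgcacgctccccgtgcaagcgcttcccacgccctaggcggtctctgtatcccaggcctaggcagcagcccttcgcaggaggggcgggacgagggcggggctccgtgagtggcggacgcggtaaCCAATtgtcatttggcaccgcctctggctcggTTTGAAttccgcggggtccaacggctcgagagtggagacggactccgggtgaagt

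TTTGAA occurred in 25 of 34 members (73.5%), against 14.8% of the 10412 tested genes with a window and 20.2% of all 27025 genes in the RefSeq promoter table. TTTAAA, a palindrome, occurred in 8 members (23.5%), against 11.2% of tested genes. A CCAAT box was held by 28 members (82.4%), against 43.1% of tested genes, and at least 1 of each motif by 25 members (73.5%), against 9.28% of tested genes. The TTTGAA matches lay near the start, with a median position of -5 bases, and 26 of 35 lay no more than 50 bases from it. Windows of 1 gene can overlap, so the 35 matches are 31 distinct sites. CCAAT matches lay further upstream, with a median of -68 bases over 71 matches at 65 distinct sites. Of the 25 members with both, 19 rose (median change 1.24), and of the 9 without both, 7 rose (median change 1.07). By the CCAAT box alone, 20 of 28 members with it rose, and 6 of 6 without it. Melk, which rose but was tested through the ATF3 libraries alone, is among those 9 and those 6. Differences between members with and without the motifs were not tested. Among tested genes outside the set, 15.1% of the 941 with both motifs and 10.9% of the 9437 without both were called higher, and the medians were 0.032 and 0.007. Only the members were left out here, so further mitotic genes with a window are still counted. Of all further mitotic genes tested, listed below, 29.3% were called higher, and shares without them were not computed. A match is a description of the letters and no measured site.

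**Figure D2:**
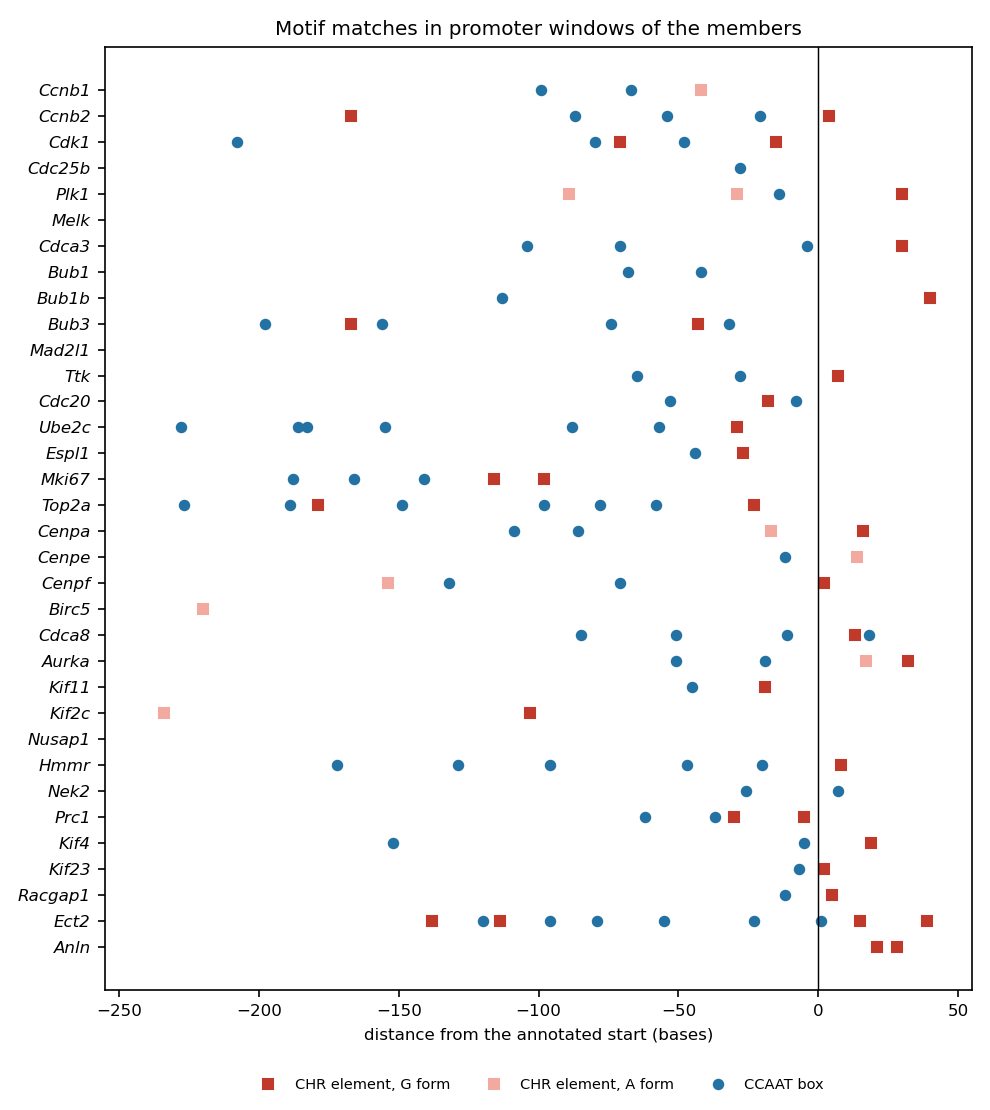
Positions of motif matches (distance from the annotated start, in bases) in the promoter windows of 34 members, each window measured from its own start and all windows of a gene on 1 line; squares are CHR matches (dark for the G form, pale for the A form) and circles CCAAT matches. Dark squares gather around the start, with a median of -5, and circles lie mostly to their left, with a median of -68.

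Genes of the cyclin and kinase engine rose in 6 of 9 tested members, or 5 of 8 without Melk, which was tested through the ATF3 libraries alone. Ccnb1, which encodes cyclin B1, held 71.9, 129, 27.9 and 79.8 normalized counts in ATF3 1 to 4, against 16.9, 26.8, 22.5 and 18.6 in Null 1 to 4. Every ATF3 library lay above every Null library, but ATF3 3 by little, and ATF3 2 stood highest. The change was 1.65 (SE 0.40, adjusted p = 0.0147, limma), and the means were 77.1 ± 41.3 in ATF3 and 21.2 ± 4.4 in Null livers (SD, n = 4 each). Cdk1, the partner kinase, did not pass, with 77.6, 131, 61.4 and 69.4 in ATF3 and 41.2, 37.9, 45.2 and 66.9 in Null livers (change 0.79, SE 0.26, limma adjusted p = 0.0588). The overlap came from ATF3 3 below Null 4, and without Null 4 Cdk1 passed.

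Foxm1 encodes a transcription factor that activates genes of late cell cycle. It held 59.0, 57.0, 26.2 and 45.9 normalized counts in ATF3 and 20.8, 21.6, 15.4 and 12.6 in Null livers, with no overlap (change 1.33, SE 0.30, adjusted p = 0.0101, limma). Cdca3, an adaptor for degradation of the mitotic inhibitor Wee1, held 93.5, 151, 61.1 and 110 in ATF3, against 31.9, 45.1, 45.3 and 21.7 in Null livers. It had the smallest p of this role (change 1.49, SE 0.31, adjusted p = 0.00704, limma) and again ATF3 2 highest and ATF3 3 lowest of the ATF3 livers. Ccnb2 (cyclin B2, 1.22), Melk (1.11) and Ccna2 (cyclin A2, 1.10) rose too. Of these, Ccna2 overlapped through ATF3 3, at 57.1 against a highest Null value of 57.8. Plk1, the polo-like kinase that drives entry and later steps, was at 1.44 (SE 0.50, limma adjusted p = 0.0649), with 36.0, 37.5, 10.5 and 27.9 in ATF3 and 13.4, 11.3, 10.8 and 3.13 in Null livers. The lowest of these is worth about 2.0 reads. Plk1 passed without ATF3 3, and the phosphatase gene Cdc25b was at 0.38 (SE 0.25, limma adjusted p = 0.312). Without ATF3 4 only 3 members of this role rose, since Ccna2, Ccnb2 and Melk no longer passed. Single omissions of other libraries also ended the calls of Ccna2 (Null 2), Ccnb2 (Null 3) and Melk (ATF3 1, ATF3 2, Null 2 or Null 3).

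Spindle checkpoint and anaphase genes had the lowest share of calls among the 6 roles, with 4 of 8 rising. Cdc20, the activator of the anaphase-promoting complex, held 74.5, 152, 38.8 and 86.2 normalized counts in ATF3 livers, against 17.0, 29.3, 22.9 and 23.3 in Null livers. Its change of 1.74 (SE 0.36, adjusted p = 0.00675, limma) came with a wide spread in ATF3 livers, 87.8 ± 47.0, against 23.1 ± 5.02 in Null livers (SD, n = 4 each). Mad2l1, the checkpoint protein that holds Cdc20 inactive, had the narrower values 147, 154, 131 and 147 in ATF3 and 75.9, 94.7, 83.1 and 36.4 in Null livers. The groups lay apart (change 1.07, SE 0.26, adjusted p = 0.016, limma), and ATF3 3 was close to the others of its group. Ttk, the kinase that starts the checkpoint, was listed at 0 in Null 1 and held 10.5, 9.33 and 6.52 in Null 2 to 4, with 28.5, 27.1, 20.4 and 28.1 in ATF3 livers. The size of its change, 2.29 (SE 0.69, limma adjusted p = 0.038), depends on the listed 0. It was 1.48 without Null 1, where the call held, and 1.17 with 10 added in place of 1. The Ttk call was lost when any 1 of the 4 ATF3 livers was left out, with 0.1 added, and against a 1.2-fold change.

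Bub1b, a checkpoint kinase-like protein, rose by 0.85 (SE 0.24, adjusted p = 0.033, limma), with ATF3 3 at 49.3 below Null 2 at 54.8. It no longer passed when ATF3 1, ATF3 2, ATF3 4, Null 1 or Null 3 was omitted. Its partner Bub1 was at 0.91 (SE 0.36, limma adjusted p = 0.104) and passed without ATF3 3. Bub3, which anchors both of them at kinetochores, did not pass (0.11, SE 0.15, limma adjusted p = 0.649), with 498 to 648 normalized counts in ATF3 and 452 to 688 in Null livers. Ube2c, the ubiquitin-conjugating enzyme of the anaphase-promoting complex, was at 1.199 (SE 0.41, limma adjusted p = 0.0652) and passed without ATF3 3 or without Null 4. Espl1, which encodes separase, was at 0.61 (SE 0.27, limma adjusted p = 0.148). Without ATF3 1, ATF3 2 or ATF3 4 only 2 members of this role rose.

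Chromosome and kinetochore genes held the 2 smallest p-values of the set, and 4 of 5 rose. Top2a, the topoisomerase that untangles sister chromatids, held 279, 323, 205 and 332 normalized counts in ATF3 livers and 128, 89.8, 109 and 122 in Null livers. All 4 ATF3 livers lay well above the Null range, and the change was 1.32 (SE 0.18, adjusted p = 0.000577, limma). Mki67, which coats mitotic chromosomes and is the usual proliferation marker, held 752, 805, 440.5 and 811 in ATF3 and 329.8, 248, 292 and 329 in Null livers (change 1.19, SE 0.20, adjusted p = 0.00186, limma). ATF3 3 stood apart from the other 3 ATF3 livers, yet above every Null liver. Cenpf, a kinetochore protein of late cell cycle, held 148, 117, 108 and 146 in ATF3, against 57.4, 59.2, 59.4 and 40.4 in Null livers (change 1.25, SE 0.18, adjusted p = 0.000821, limma). The kinetochore kinesin gene Cenpe rose by 1.12 (SE 0.18, adjusted p = 0.00141, limma), also without overlap. Cenpa, the histone H3 variant that marks centromeres, did not pass (0.21, SE 0.24, limma adjusted p = 0.589). Its values were 99.1, 131, 95.4 and 88.0 in ATF3 and 109, 114, 91.6 and 53.3 in Null livers, and without Null 4 the sign turned, to -0.03.

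The chromosomal passenger complex corrects faulty attachments and then moves to the midzone, and all 4 of its members rose without overlap. Birc5, which encodes survivin, held 93.1, 125, 86.0 and 121 normalized counts in ATF3 and 31.05, 37.2, 58.8 and 18.3 in Null livers. Its change was 1.62 (SE 0.31, adjusted p = 0.00438, limma), and the lowest ATF3 liver stood clear of the highest Null liver. Aurkb, the kinase of the complex, held 29.2, 36.5, 29.3 and 40.1 in ATF3 and 13.7, 9.54, 15.2 and 17.1 in Null livers (change 1.24, SE 0.25, adjusted p = 0.00554, limma). The other two, Cdca8 (borealin) and the scaffold Incenp, rose by 1.22 and 0.82. For Cdca8 ATF3 3 was the highest ATF3 liver, at 42.0 against 34.8, 32.01 and 33.5, the one tested member for which that held.

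Spindle and centrosome genes rose in 7 of 7 members, with no overlap in any. Aurka, the centrosomal Aurora kinase, held 46.1, 64.8, 47.0 and 74.3 normalized counts in ATF3 livers, against 12.4, 24.3, 16.9 and 21.9 in Null livers. The lowest ATF3 value lay above the Null range by more than the width of that range, and the change was 1.58 (SE 0.26, adjusted p = 0.00191, limma). Nusap1, a microtubule-bundling protein, held 61.9, 94.8, 65.3 and 81.0 in ATF3 and 38.1, 27.2, 21.4 and 25.5 in Null livers (change 1.41, SE 0.22, adjusted p = 0.00145, limma). Hmmr, a spindle-pole protein, had a larger change of 1.67 but a wider spread, with 80.2, 169, 54.2 and 104 in ATF3 and 26.7, 42.1, 21.2 and 28.3 in Null livers. The microtubule depolymerase gene Kif2c rose by 1.44, the Aurora A activator gene Tpx2 by 1.36 and Kif11, whose motor pushes the poles apart, by 0.92. Nek2, a kinase of centrosome separation, rose by 0.54 (SE 0.15, adjusted p = 0.026, limma), the smallest change among called members, and it no longer passed when ATF3 2, ATF3 4, Null 1 or Null 2 was omitted.

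Genes of the central spindle and cytokinesis rose in 7 of 7 members as well. Ect2, the exchange factor that activates RhoA at the cleavage furrow, held 165, 147, 124 and 174 normalized counts in ATF3 and 76.6, 71.8, 65.97 and 45.4 in Null livers. The groups lay far apart, with a change of 1.24 (SE 0.19, adjusted p = 0.00122, limma). Prc1, which bundles the microtubules of the midzone, held 97.5, 137, 59.4 and 124 in ATF3 and 37.6, 31.1, 29.3 and 36.8 in Null livers (change 1.54, SE 0.25, adjusted p = 0.00185, limma). The kinesin genes Kif4 and Kif20a, whose motors work at the midzone, rose by 1.28 and 1.35. Kif23 and Racgap1, which together form centralspindlin, rose by 1.30 and 1.17. Kif23 was the one of the pair with a wide spread, 103, 47.9, 70.7 and 68.2 in ATF3 and 42.4, 20.1, 43.7 and 15.6 in Null livers. Anln, the furrow scaffold anillin, rose by 0.92 (SE 0.27, adjusted p = 0.0356, limma), with ATF3 3 at 52.2 below Null 3 at 61.03. Kif23 no longer passed in fits that omitted ATF3 1, ATF3 3, ATF3 4 or Null 2, and Anln in those that omitted ATF3 1, ATF3 2, ATF3 4, Null 1 or Null 2.

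**Figure D3:**
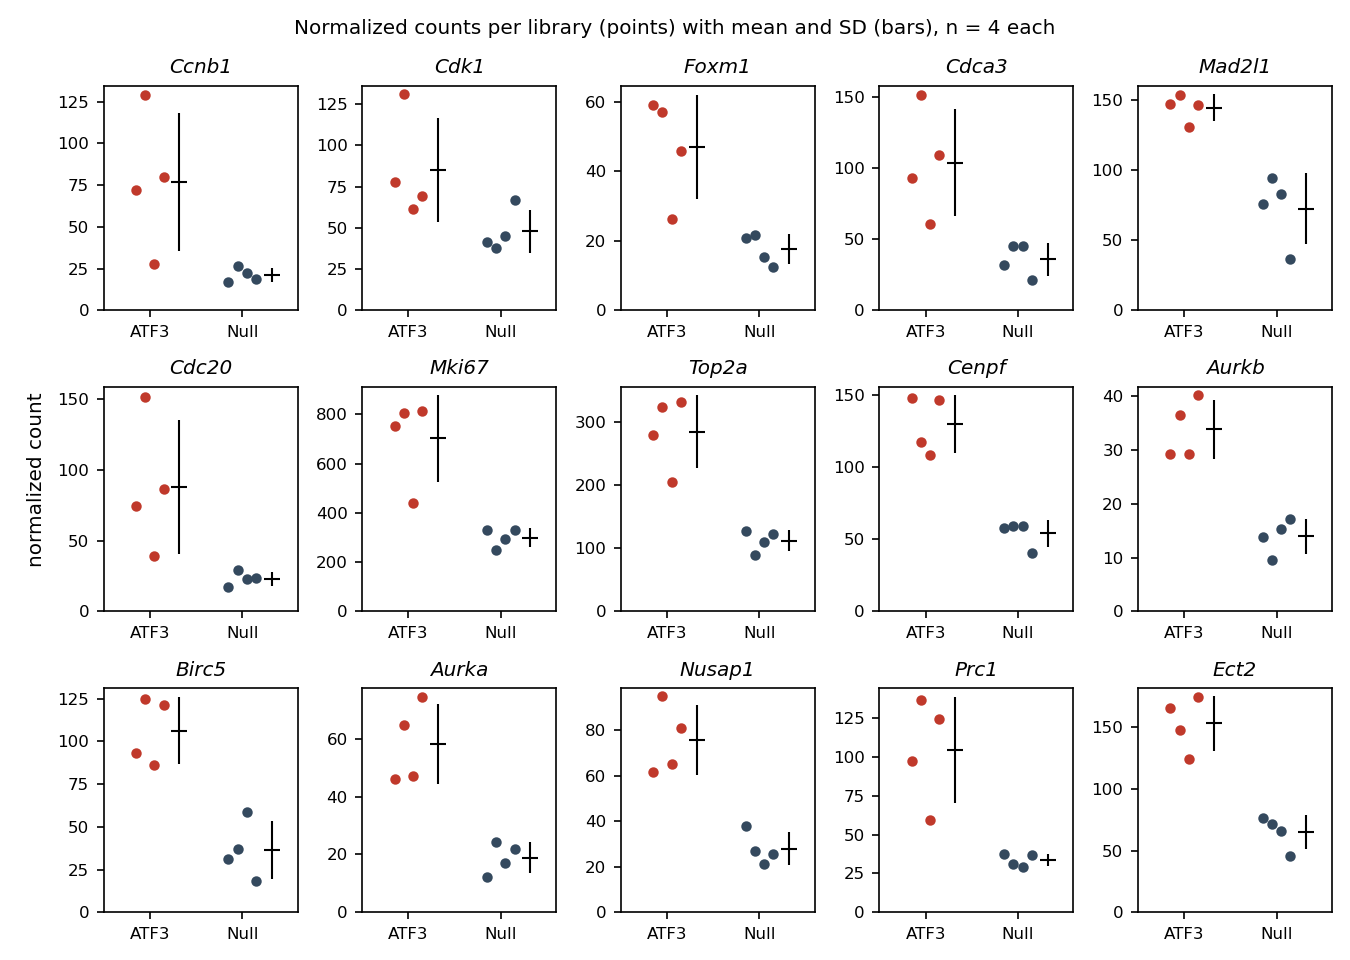
Normalized counts per library (points) of 15 members, the 5 fixed ones and the 2 with the smallest p of each role, with the mean and SD of each group (bar), 4 ATF3 and 4 Null libraries each and axes from 0. The groups are apart in 14 of these panels and overlap for Cdk1, where the lowest ATF3 value is 61.4 and the highest Null value 66.9.

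Values of the members differed between the ATF3 livers, and the reason was not tested. Measured from the mean of the Null livers, the median of the 40 members was 1.27, 1.5, 0.71 and 1.40 in ATF3 1 to 4 and lay between 0.016 and 0.075 in the Null livers. ATF3 3 was the lowest ATF3 liver for 31 of 40 members (77.5%), and for 20.7% of all tested genes. ATF3 2 was the highest for 23 members (57.5%), and for 29.8% of all tested genes. In ATF3 3, 10 members did not exceed every Null liver, namely Ccna2, Cdk1, Plk1, Bub1, Bub1b, Bub3, Ube2c, Espl1, Cenpa and Anln, while this number was 2 in ATF3 1, 2 in ATF3 2 and 3 in ATF3 4. By role, the median of ATF3 3 was 0.40 for the cyclin and kinase engine and 0.29 for checkpoint and anaphase genes, but 1.19 for the passenger complex. In ATF3 2 the same medians were 1.71, 1.30 and 1.22. The SD of log2 values was larger in ATF3 than in Null livers for 21 of 40 members (52.5%), against 28.9% of all tested genes. Atf3 itself held 5611, 5886, 7053 and 6722 normalized counts in ATF3 1 to 4, and a link between its level and the members was not tested.

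**Figure D4:**
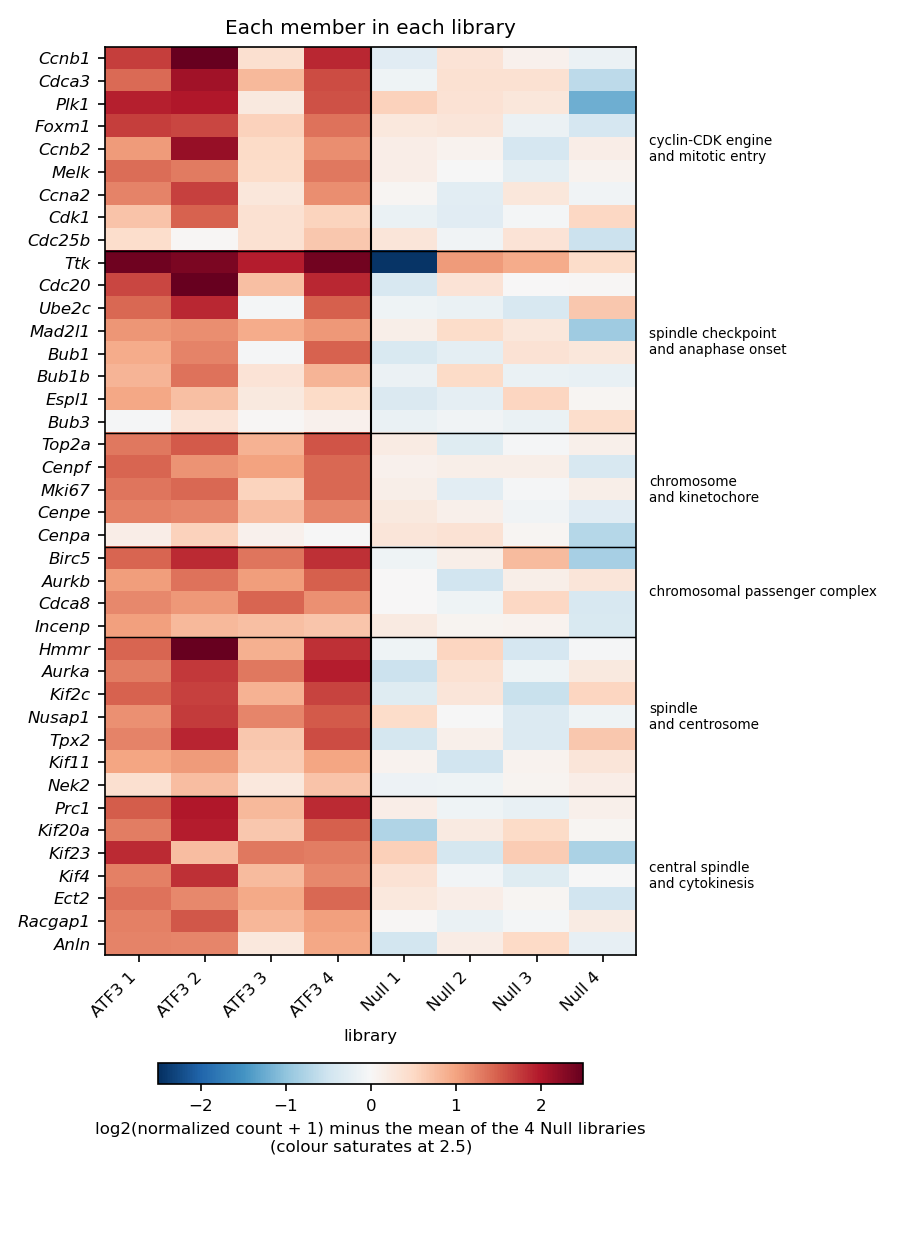
Each tested member (rows, by role) in each library (columns), as log2(normalized count + 1) minus the mean of the 4 Null libraries; red is above that mean. ATF3 3 is paler than the other ATF3 columns in most rows, and the passenger complex rows are about equally red in all 4.

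**Figure D5:**
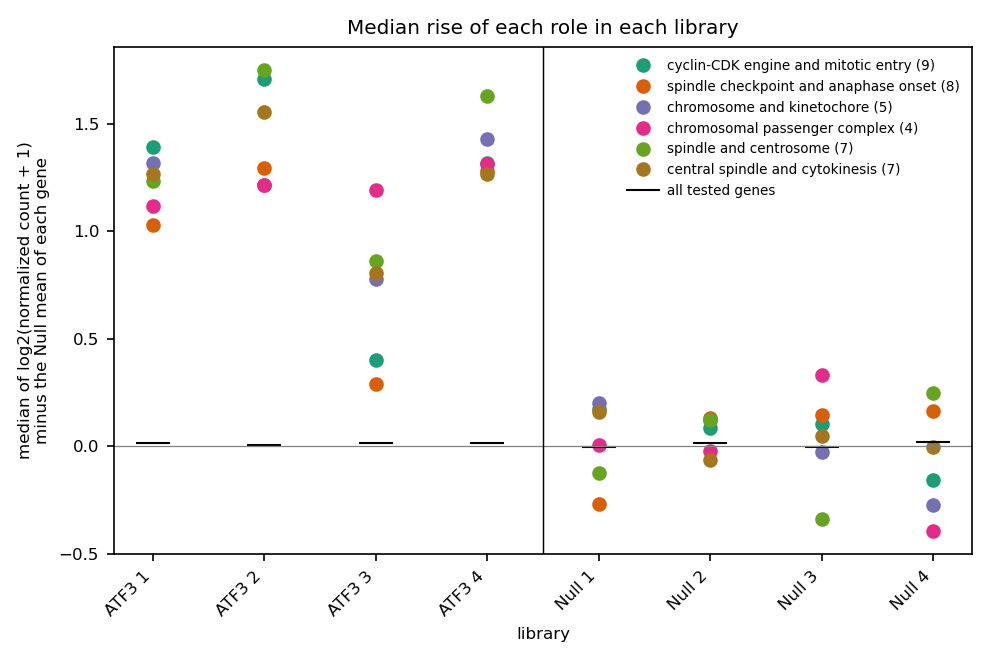
Median over the members of each role (points; number of members in the legend) of log2(normalized count + 1) minus the Null mean of each gene, per library, with the median of all tested genes as a dash. In ATF3 3 the roles spread from 0.29 for checkpoint genes to 1.19 for the passenger complex, and in ATF3 1 from 1.03 to 1.39.

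Levels between genes were compared per length, as deposited TPM rescaled by median of ratios. Bub3 was the most abundant member, at 11.0 ± 1.32 TPM in ATF3 and 10.3 ± 2.25 TPM in Null livers (SD, n = 4 each). Next in ATF3 livers came Mad2l1 (3.71 ± 0.246), Birc5 (3.64 ± 0.677), Cenpa (3.13 ± 0.583) and Cdca3 (2.85 ± 1.03), which do not differ from their neighbours beyond their spread. In Null livers Mad2l1 held 1.86 ± 0.646, Birc5 1.25 ± 0.579, Cenpa 2.78 ± 0.821 and Cdca3 0.988 ± 0.311 TPM. Mki67 reached 2.54 ± 0.637 TPM in ATF3 and 1.08 ± 0.138 TPM in Null livers, fewer per length than its count alone shows. Lowest of the tested members was Espl1, at 0.136 ± 0.0304 TPM in ATF3 and 0.0891 ± 0.0276 TPM in Null livers. Bub3 and Cenpa, 2 of the 4 most abundant members in ATF3 livers, were among the 8 that did not pass.

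Beyond the 41 members, 158 further genes of mitosis and its control were listed, of which 147 were tested, 43 rose and 7 fell. Some lists share Ckap2, Kif14, Pbk or Anapc15, so tested and rising genes by list add up to more than these totals. Of the risers 3, Sgo1, Kif18b and Depdc1a, were under 10 in every Null library and were tested through the ATF3 libraries alone, and without them 40 of 144 rose. Of 29 kinetochore subunits 11 rose and 0 fell (14 and 1 at an unadjusted p under 0.05, limma), or 10 of 28 without Sgo1. Cenpm, a subunit of the inner kinetochore, had 108, 131, 133 and 114 normalized counts in ATF3 and 11.3, 27.6, 26.3 and 12.5 in Null livers (change 2.69, SE 0.29, adjusted p = 0.000142, limma), and ATF3 3 was the highest. Spc24 of the NDC80 complex held 502, 769, 701 and 662 in ATF3, against 116, 178, 95.02 and 173 in Null livers (change 2.25, SE 0.22, adjusted p = 6.02e-05, limma). The cohesin protector gene Sgo2a rose by 1.32. Of 24 further spindle and centrosome genes 13 rose and 0 fell (19 and 0 unadjusted), or 12 of 23 without Kif18b, among them the centriole duplication genes Stil (1.94) and Plk4 (1.40) and the spindle gene Dlgap5 (1.74). Of 19 further cytokinesis genes 7 rose and 0 fell (10 and 0 unadjusted), or 6 of 18 without Depdc1a, with Cep55, a midbody scaffold gene, at 1.55, Iqgap3 at 1.39 and Depdc1a at 1.74, which depends on the added 1.

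Other lists moved less or in both directions. Of 19 condensin and cohesin genes 4 rose, the condensin genes Ncapg (1.40), Smc2 (1.08), Ncapd2 (0.85) and Ncapg2 (0.74), and 1 fell, the cohesin regulator gene Pds5b (-0.46). At an unadjusted p under 0.05 (limma) 5 of them were higher and 2 lower. Among 17 subunits and partners of the anaphase-promoting complex 2 rose and 0 fell (3 and 0 unadjusted), with Anapc4 at 0.48, Anapc5 at 0.29 and Cdc16 not passing at 0.35. This share of 11.8% is close to the 11.4% of all tested genes. Of 20 further mitotic kinases and regulators Pbk (1.25), Gtse1 (0.85) and Ccnf (0.84) rose, and the phosphatase gene Cdc14b fell by 0.43. Their share of 15% called higher is near the 11.4% of all tested genes, and 7 were higher and 4 lower unadjusted. Transcription regulators of the DREAM, MuvB and E2F families split, with 6 higher and 5 lower of 23 (7 and 6 unadjusted). The repressor genes E2f7 and Rbl1 rose by 2.04 and 0.97. Mybl1, which encodes A-MYB, the E2F partner gene Tfdp1 and the NF-Y subunit gene Nfya rose by 0.76, 0.47 and 0.55, and were named after their values were seen. E2f8, which works with E2f7 in limiting hepatocyte cytokinesis in mouse liver and was chosen after its values were seen, rose by 1.72. It held 1247, 919, 1070 and 1064 normalized counts in ATF3 and 453, 333, 477 and 153 in Null livers. Nfyb, another subunit gene of the CCAAT-binding NF-Y, fell by 0.81, and Rbbp4, Tfdp2, E2f3 and Rbl2 fell by 0.67, 0.47, 0.46 and 0.25. In the deposited TPM without rescaling, where the median change of all genes moved up to 0.68, the 7 genes that fell had positive changes and none was called. Mybl2, which encodes B-MYB and was named after its values were seen, held 7.90, 7.96, 12.6 and 10.1 in ATF3, against 15.4, 7.95, 15.5 and 4.71 in Null livers (-0.05, SE 0.40, limma adjusted p = 0.944), and its sign turned in 4 of the 8 fits without 1 library. The calls of Anapc5, Rbl2, Anapc4, Pbk, Gtse1, Mybl1 and Nfya were lost in 3 or more fits without 1 library, and that of Sgo1 without ATF3 4.

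No marker of a cell type other than hepatocytes was called higher. Among all tested genes 11.4% were called higher and 9.82% lower, so lists this short would hold few calls in any case. Changes in the cell makeup of the livers were not tested. Of 11 Kupffer cell and macrophage markers 0 rose and 0 fell, also at an unadjusted p under 0.05 (limma), and their summed counts were 12880 to 17930 in ATF3 and 11130 to 16770 in Null livers. The highest Null sum was that of Null 4, while Null 1 to 3 held 11620, 11130 and 11760, below every ATF3 liver. Endothelial markers summed to 17460 to 18160 in ATF3 and 18480 to 20860 in Null livers, with 0 of 11 higher and Ptprb lower (0 and 2 at an unadjusted p under 0.05). Stellate cell markers summed to 12030 to 14420 in ATF3 and 13160 to 17450 in Null livers, with 0 of 10 higher and Rgs5 lower (0 and 3 unadjusted). For cholangiocytes the sums were 924 to 1313 in ATF3 and 903 to 1624 in Null livers, with 0 of 7 tested higher and Sox9 lower (0 and 1 unadjusted). Most of these sums was Spp1, with means of 950 in ATF3 and 859 in Null livers, while the median change of the tested markers was -0.207. T and NK cell markers summed to 79.5 to 125 in ATF3 and 114 to 158 in Null livers (0 of 5 tested higher, Cd4 lower, 0 and 1 unadjusted), and B and plasma cell markers to 159 to 236 in ATF3 and 195 to 331 in Null livers (0 of 7 tested higher or lower, also unadjusted). Neutrophil and myeloid precursor markers summed to at most 27.8 in ATF3 and 40.2 in Null livers, none of 10 passed the filter, and Ly6g, Mpo and Camp were listed at 0 in all 8 libraries. Erythroid markers summed to 3411 to 5089 in ATF3 and 2654 to 3938 in Null livers, with 0 of 5 tested higher and Car1 lower (1 and 2 unadjusted), and Hemgn listed at 0 throughout. Nearly all of these sums was Alas2, with means of 4076 in ATF3 and 3154 in Null livers (change 0.37, not called). The other tested markers Klf1, Epor, Slc4a1 and Car1 went the other way, with changes of -0.81, -0.13, -0.56 and -1.01. Hepatocyte markers summed to 2748000 to 3272000 in ATF3 and 2026000 to 3289000 in Null livers, with Ttr and Apoh higher and Serpina1a and Serpina1c lower (2 and 4 unadjusted). Most of the hepatocyte sums was Alb, with means of 2304000 in ATF3 and 1652000 in Null livers.

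In GENCODE M21 for mm10, fewer than 10% of the 31-base stretches of 38 of the 41 members occurred in transcripts of another gene. The exceptions were Ccnb1 (27.7%, most often in Ccnb1-ps), Cdc20 (25.5%, Gm7856) and Plk1 (14.8%, Plk-ps1), so values of these 3 are less certain. The library kit keeps the strand, but whether counting used it is not given in the sources used here, and exons of 12 members overlap exons of a gene on the other strand. The longest overlaps were Kif20a with Cdc23 (1271 bases), Prc1 with Rccd1 (911 bases) and Kif4 with Pdzd11 (832 bases). Cdc23, Rccd1 and Pdzd11 did not pass, at 0.23, 0.12 and 0.21, whereas Exosc9, which overlaps Ccna2 by 510 bases, rose by 0.40. The members lie on 15 chromosomes, among them Top2a at chr11:98992943-99024189, Mki67 at chr7:135689784-135716361 and Ect2 at chr3:27097222-27153878.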

How the data were processed

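Total RNA from mouse liver was made into stranded total RNA libraries, per the labels' protocols. The submitters' processing notes name Bowtie2 and mm10, while counter, annotation and filters are not stated there. A first table of the authors holds a signal, the estimated count of each gene after scaling by library (by DESeq, going by its name), and a second holds deposited TPM. The scaled counts are not whole, so no count model was run. The TPM of the authors are dominated by Mir6236 in some libraries, with up to 89.4% (Null 1) and at least 0.308% (Null 4). Libraries were assigned by column title, and their numbers pair nothing. At most 10 tested genes had equal values in a pair of libraries.

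Genes reaching 10 in 4 or more libraries were fitted with limma 3.58.1 in R 4.3.3 on log2(value + 1), with a term for group, a variance trend and two-sided tests, adjusted by Benjamini-Hochberg over all 13301 genes at a threshold of 0.05. Dividing each column's sum by its most frequent low value gave the depth estimate. Adding 1 understates changes of low genes. The fit was tested on simulated data. Members and lists were chosen with earlier results of these data known. Full values are given for Mki67, Top2a, Cdk1, Ccnb1, Foxm1, the 2 members of each role with the smallest p and any tested member with a negative change (none was found), while of each further list the 3 smallest p and calls against its main direction are named, mostly by their change alone. Chosen after their values were seen, values of Melk, Plk1, Ttk, Hmmr, Kif23, Cenpa, Cdca8, Cdc25c, Cenpm, Spc24, E2f8 and Mybl2 and the names of Gtse1, Ncapg2, Nfya, Tfdp1, Mybl1, Sgo1 and Kif18b are given besides. Python 3.11.15, pandas 2.3.3, numpy 2.4.6 and matplotlib 3.10.9 made tables and figures. Alternatives changed the scaling (TMM or median of ratios), filter, added value, table, variance model, library weights, fold threshold or set of libraries.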

Additional observations from a re-analysis of the deposited data

Results flagged for a closer look

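Among the 82 groups of 4 values of the 41 members, 6 held 1 library far from the other 3, and chance alone flags about 1 in 20 groups. ATF3 3 was the low one in 3 of them, with Melk at 10.4 against 19.3 to 20.8 normalized counts, Mki67 at 440.5 against 752 to 811 and Cenpe at 85.7 against 116 to 121 in the other ATF3 livers. In the Null group, Bub1b stood out in Null 2 at 54.8, against 34.3 to 35.2 in the others. Null 4 was high for Bub3, at 688 against 452 to 478, and low for Cenpf, at 40.4 against 57.4 to 59.4.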

How the results depend on the processing

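The number of members rising was 21 of the 24 left with a mean of at least 50, where the other mitotic lists had 21, the cyclin and kinase role 2 and the passenger complex 2 rising, since fewer genes were tested. Against a 1.2-fold change (limma treat) 22 members rose, with 3 in the cyclin and kinase role, 1 in the checkpoint role and 25 in the other mitotic lists. In all other settings that kept the 8 libraries 31 to 33 members rose and 0 fell. The members' median was 0.77 with deposited TPM, where the median of all genes moved to 0.68 and 440 of them rose, and 0.42 with rescaled TPM (all genes 0.003). Adding 1 is large against the TPM of most members: without it, the median log2 ratio of group means was 1.26 in rescaled TPM and 1.26 in normalized counts. Leaving out 1 library gave 3 to 7 rising in the cyclin and kinase role, 2 to 5 in the checkpoint role, and 29 (without ATF3 4) to 48 (without Null 4) in the other lists. Cenpa turned to -0.034 with array weights, and lay between -0.03 (without Null 4) and 0.33 when 1 library was left out. With deposited TPM the changes of Pds5b, Cdc14b, Rbbp4, E2f3, Rbl2, Tfdp2, Nfyb and Mybl2 became 0.36, 0.445, 0.288, 0.247, 0.635, 0.317, 0.107 and 0.065. Mybl2 lay between -0.36 and 0.149 when 1 library was left out. The cause of these turns was not tested. A filter on a mean of at least 10, chosen after seeing the data, gave 32. Depth limits Ttk, Plk1, Melk and Cdc25c most. No paired analysis was possible because the replicate numbers follow sample order and pair no libraries.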
